A study of Gallus gallus with 16 samples.

Results

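Nicotine was compared with vehicle in chicken embryos of day 5 of incubation, in 8 of the 16 RNA-seq libraries of a study of nicotine and early development. The 8 libraries are the 4 nicotine and 4 vehicle columns of day 5 in the authors' count matrix. That matrix holds 26943 loci, of which 18394 passed the filter on low counts and were tested with edgeR. All embryos were wild type domestic chickens from specific-pathogen-free eggs, and the labels call the 4 libraries of a group biological replicates. The nicotine group received nicotine hydrogen bitartrate at 30 ng/ml, scaled to the weight of the egg, in Chicken Ringer's solution through the blunt pole before incubation began. The vehicle group received sodium bitartrate monohydrate in the same way. Embryos of both groups were checked as viable and free of gross abnormality before the tissue was taken, so embryos that failed that check are not represented. The tissue was a block holding the spinal cord from the middle of the neck to the rear edge of the forelimb, and the labels give no embryo sex, clutch or sequencing batch.

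Nicotine binds nicotinic acetylcholine receptors, ligand-gated cation channels built from several subunits that open in response to acetylcholine. In the embryo these receptors appear on early neurons and on muscle before synapses are mature. At this stage the spinal cord holds dividing progenitors arranged along the dorsoventral axis by Sonic hedgehog from the floor plate and by BMP and Wnt signals from the roof plate, together with motor neurons and interneurons that are extending axons.

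Totals ran from 21801247 to 29002315 counts over the whole matrix. At day 5 they were 24756162 ± 3070555 with nicotine and 24726800 ± 2247010 with vehicle (SD, n = 4 each, exact permutation p = 0.971, two-sided). In a principal component analysis of the 8 libraries the first component held 25.5% of the variance and set vehicle replicate 2 and nicotine replicate 4 apart from the other 6. These are 2 of the 4 libraries of the series in which 57 loci were below 0.05 CPM, read counts scaled to library size, while the other 12 all had at least 0.5 CPM there, and both groups of day 5 hold 1 such library. Some gene lists and genes are therefore also given without these 2 libraries, a choice made after seeing the data. In that setting more loci passed in general, 10.3% higher and 10.6% lower at an unadjusted p under 0.05 by edgeR. Markers of the spinal cord were present in each library, with summed levels of 13 progenitor genes at 1040 to 1740 CPM with vehicle and 1380 to 2040 CPM with nicotine. The block was not pure spinal cord: 20 muscle genes summed to 1190 to 1600 CPM over the 8 libraries, 14 cartilage and sclerotome genes to 442 to 818 CPM and 5 red blood cell genes to 724 to 1080 CPM, and no measured marker of these lists was at 0 counts in all 8. In such bulk tissue fewer cells of a type and less RNA per cell cannot be told apart.

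The differences between nicotine and vehicle embryos were small, mostly under 2-fold, and whether any passed a test across all loci depended on the method. edgeR's quasi-likelihood test, fitted to all 16 libraries, called 0 of 18394 tested loci (0.0%) at a Benjamini-Hochberg adjusted p under 0.05, with a smallest adjusted p of 0.217. At an unadjusted p under 0.05 there were 1389 loci higher (7.55%) and 1358 lower (7.38%) with nicotine. The 4 nicotine libraries lay entirely above the 4 vehicle libraries at 426 loci (2.32%) and entirely below them at 380 (2.07%). In the authors' deposited table of this comparison 90 loci were called higher (0.756% of 11908 with an adjusted p) and 232 lower (1.95%) at an adjusted p under 0.05, together 2.7%. The median log2 fold change was 0.46 for the former and -0.49 for the latter in the authors' deposited table, and 4 and 9 loci of these changed by at least 2-fold. DESeq2 on the same counts called 82 higher (0.694%) and 185 lower (1.57%), or 82 (0.695%) and 217 (1.84%) with a term for the absent loci, and its total of 267 became 35 to 1135 when single libraries of day 5 were left out. Of the called loci of the authors' deposited table, 317 were tested here with edgeR, and 308 of them had an unadjusted p under 0.05. The table and the matrix hold the same reads, so the shared direction of all 317 is no independent evidence. Without the term for the absent loci DESeq2 called 258 of the 317, and 52 of the 61 named genes called in the table. The 9 others were ISL1, LGR4, TENM2, MMP2, LAMA2, VCAN, DDIT4, SGCA and SOX6, with adjusted p-values of 0.0504 (DDIT4) to 0.202 (ISL1) by DESeq2. Assembled loci were named by pairing them with rows of that table through their fold changes, and 8526 of the tested loci had a symbol. Below, "called" refers to the authors' deposited table, levels are CPM in single libraries in the order of replicates 1 to 4, log2 differences with an SE are from edgeR, and edgeR's adjusted p was 0.217 or more for every gene named. The gene lists were drawn up with earlier results of these data known. A list's share beside that of all loci is therefore a description and no independent evidence.

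Among the genes called higher with the smallest p-values were CELF2, STX6 and TNS1. CELF2 is an RNA-binding protein that regulates splicing. Its level was 42.8, 35.9, 39.5 and 33.3 CPM with vehicle and 78.6, 78.7, 75.9 and 77.8 CPM with nicotine, so the groups were far apart and the nicotine libraries nearly equal. The log2 difference was 1.04 ± 0.21 (SE, n = 4 each, edgeR adjusted p = 0.217), and CELF2 was called in the authors' deposited table at 1.01 (adjusted p = 0.00446). STX6, a SNARE protein of membrane traffic at the trans-Golgi, stood at 34.9, 39.6, 37.0 and 44.2 CPM with vehicle and 48.6, 49.2, 53.1 and 50.0 CPM with nicotine, without overlap (log2 difference 0.37 ± 0.07). TNS1, a focal adhesion protein that links integrins to actin, stood at 63.5, 40.1, 29.9 and 42.8 CPM with vehicle and 83.3, 63.5, 95.1 and 86.0 CPM with nicotine. The groups of TNS1 touched, vehicle replicate 1 being level with nicotine replicate 2, and the log2 difference was 0.90 ± 0.18. TMEM108, a transmembrane protein of neurons, stood at 19.3 to 25.3 CPM with vehicle and 31.7 to 35.1 CPM with nicotine (log2 difference 0.55 ± 0.11). PIAS4, a SUMO ligase, stood at 20.3 to 23.1 and 24.4 to 31.97 CPM, and TNPO2, a nuclear import receptor, at 157 to 197 and 211 to 283 CPM. MPP2, a membrane scaffold protein, stood at 4.21 to 5.00 and 6.06 to 7.34 CPM, and ARAP3, a GTPase-activating protein, at 17.5 to 20.7 and 23.4 to 29.5 CPM. All of these were called higher in the authors' deposited table, at log2 fold changes of 0.34 (STX6), 0.87 (TNS1), 0.52 (TMEM108), 0.41 (PIAS4), 0.39 (TNPO2), 0.55 (MPP2) and 0.44 (ARAP3). C12orf10, FAM110B, RFX2, MGAT4B, CANT1 and WDR55 were called as well, with log2 differences of 0.51, 0.36, 0.49, 0.32, 0.54 and 0.44 here, and among these the CANT1 groups overlapped. STK32B, a protein kinase, lay entirely higher at 1.12 to 2.27 and 2.71 to 3.79 CPM (0.97 ± 0.22), but had no adjusted p in the authors' deposited table.

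**Figure D1:**
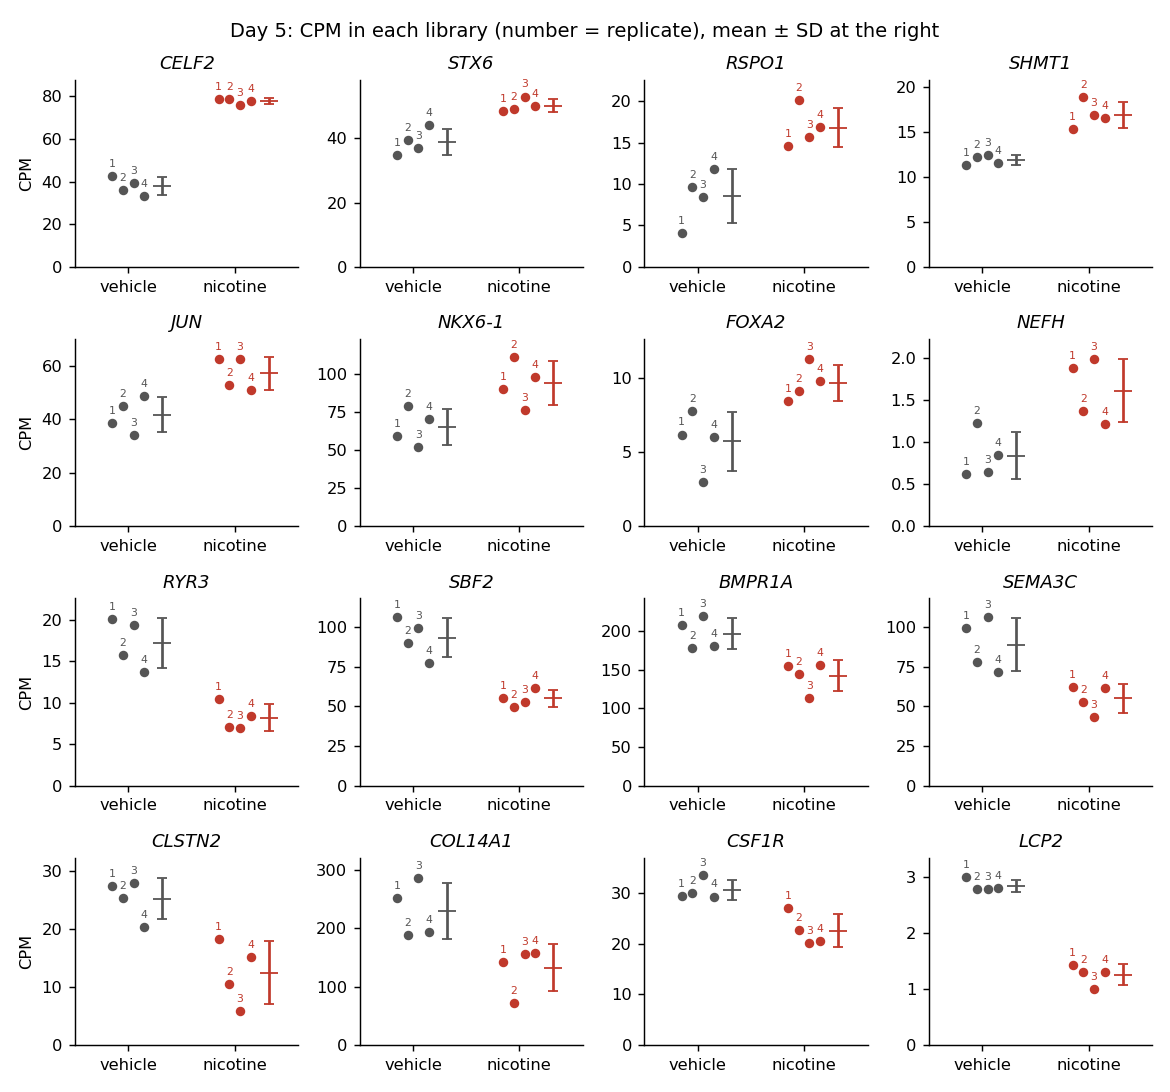
Levels of 16 named genes in the 8 libraries of day 5. The vertical axis is CPM from 0, each point is a library labelled with its replicate number, grey is vehicle, red is nicotine, and the bar beside the points is the mean ± SD of 4 libraries. The nicotine points of CELF2 (75.9 to 78.7 CPM) lie above all vehicle points (33.3 to 42.8 CPM), while those of SBF2 (49.7 to 61.7 CPM) lie below them (77.5 to 106 CPM), and in NKX6-1 and NEFH the groups overlap.

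SBF2 and RYR3 had the smallest p-values of all genes called lower. SBF2, a myotubularin-related protein that acts in membrane traffic, stood at 106, 90.0, 99.3 and 77.5 CPM with vehicle and 55.4, 49.7, 52.7 and 61.7 CPM with nicotine. Every nicotine library was below every vehicle library, with a log2 difference of -0.76 ± 0.12 (SE, n = 4 each, edgeR adjusted p = 0.217). SBF2 was called in the authors' deposited table with the smallest adjusted p of all its genes with a symbol, 1.191e-05, at -0.79. RYR3, a channel that releases calcium from the endoplasmic reticulum, stood at 20.03, 15.8, 19.3 and 13.7 CPM with vehicle and 10.4, 7.01, 6.91 and 8.36 CPM with nicotine. Its groups were also apart, at -1.07 ± 0.19. FTO, an RNA demethylase, stood at 6.58 to 10.6 CPM with vehicle and 2.65 to 5.79 CPM with nicotine (-1.01 ± 0.22). ZNF521, a zinc finger protein of neural progenitors, stood at 228 to 272 and 191 to 206 CPM, and RORA, an orphan nuclear receptor, at 41.3 to 48.5 and 27.9 to 34.98 CPM. CRIM1, a transmembrane protein that binds BMPs, stood at 33.4 to 40.0 and 18.7 to 29.0 CPM. UVRAG, a regulator of autophagy, stood at 11.7 to 14.5 and 8.71 to 10.6 CPM, and CDK5RAP2, a centrosome protein needed for brain growth in humans, at 188 to 233 and 114 to 177 CPM. These 8 genes did not overlap between the groups and were called lower in the authors' deposited table, at -1.10 (RYR3), -1.04 (FTO), -0.36 (ZNF521), -0.51 (RORA), -0.59 (CRIM1), -0.48 (UVRAG) and -0.52 (CDK5RAP2) besides SBF2. DENND1B, DIP2C, MGEA5, CCDC88A, FOXN2 and MYLK were called as well, with log2 differences between -0.72 (DENND1B) and -0.38 (CCDC88A) and no overlap.

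Of 13 genes of spinal cord progenitors tested, 12 had a log2 difference above 0 with nicotine, with a median of 0.38 against 0.03 for all tested loci. Single genes seldom passed: 1 of the 13 had an unadjusted p under 0.05, near the 7.55% of all loci that did so on the higher side. That gene was NKX6-1, a transcription factor of ventral progenitors, at 59.4, 79.0, 52.4 and 70.7 CPM with vehicle and 90.4, 111, 76.6 and 98.4 CPM with nicotine. Its groups overlapped in a single pair, vehicle replicate 2 being above nicotine replicate 3, and the log2 difference was 0.53 ± 0.14. NKX6-1 was the only call of 12 progenitor genes with an adjusted p in the authors' deposited table, at 0.51 (adjusted p = 0.0348). Over all loci 0.756% were called higher. DBX2, a factor of intermediate progenitors, was the only one of the 13 without overlap, at 15.9 to 19.5 and 20.2 to 27.8 CPM (0.38 ± 0.24). Over all loci 2.32% lay entirely higher. PAX6, which marks a broad band of progenitors, stood at 0.49, NKX2-2 of the most ventral domain at 0.61 and SOX9 at 0.46, none with an unadjusted p under 0.05, and PAX3 of dorsal progenitors stood at -0.24. Without vehicle replicate 2 and nicotine replicate 4, 6 of the 13 had an unadjusted p under 0.05, all higher, against 10.3% of loci, and the median was 0.54. SOX9 then stood at 0.72.

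Of 11 floor plate and Sonic hedgehog genes tested, 9 stood above 0, with a median of 0.28. The libraries lay entirely higher with nicotine for 3 (2.32% of loci) and entirely lower for none (2.07%). At an unadjusted p under 0.05, 4 were higher (7.55% of loci) and 2 lower (7.38%), the latter being HHIP and GLI3. FOXA2, the transcription factor that specifies the floor plate, stood at 6.18, 7.74, 2.98 and 6.01 CPM with vehicle and 8.44, 9.09, 11.3 and 9.80 CPM with nicotine (0.75 ± 0.24), and missed the call in the authors' deposited table at 0.74 (adjusted p = 0.0575). The related factor FOXA1 stood at 1.65 to 3.07 and 3.42 to 4.70 CPM, and SHH itself, the secreted signal of floor plate and notochord, at 14.1 to 18.4 and 19.2 to 21.7 CPM (0.29 ± 0.13). HHIP, a decoy receptor that dampens the signal, stood at -0.37 ± 0.16, and GLI3, a transcriptional effector of the pathway, at -0.37 ± 0.17, both overlapping. None of the 10 genes with an adjusted p was called in the authors' deposited table. FOXA2 ran from 0.52 to 0.90 when single libraries were left out. It stood at 0.90 without vehicle replicate 2 and nicotine replicate 4 and was then called by DESeq2 (adjusted p = 0.0244). In that setting DESeq2 called 568 of 12185 loci higher and 739 lower. By edgeR 6 of the 11 genes were then higher and 2 lower at an unadjusted p under 0.05, against 10.3% and 10.6% of loci.

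Genes of neurons did not all stand on the same side. Of 8 genes of neuronal differentiation and cytoskeleton, 5 stood above 0, and 4 had an unadjusted p under 0.05 and all 4 were higher, against 7.55% of loci. NEFH, the heavy neurofilament subunit, stood at 0.627, 1.23, 0.642 and 0.853 CPM with vehicle and 1.89, 1.37, 1.99 and 1.22 CPM with nicotine (0.94 ± 0.27). The light subunit NEFL stood at 119, 162, 88.1 and 142 CPM and 215, 167, 166 and 157 CPM (0.46 ± 0.16), and the medium subunit NEFM at 193, 327, 133 and 263 CPM and 413, 308, 364 and 295 CPM (0.59 ± 0.21). Vehicle replicates 1 and 3 were the lowest libraries for all 3 subunits, and vehicle replicate 2 overlapped with nicotine each time. RBFOX3, a splicing factor of mature neurons, stood at 6.50 to 12.5 and 10.8 to 14.4 CPM, and none of the 7 genes with an adjusted p was called in the authors' deposited table. The 3 genes below 0 were ELAVL4, an RNA-binding protein of neurons (-0.28), SNAP25, a SNARE protein of synaptic vesicle release (-0.10), and NCAM1, a neural adhesion molecule (-0.11). Without vehicle replicate 2 and nicotine replicate 4, 5 of the 8 were higher at an unadjusted p under 0.05 against 10.3% of loci, and the list median was 0.68 in place of 0.45. DESeq2 then called NEFM, NEFL and RBFOX3, at adjusted p-values of 0.00385, 0.0114 and 0.00109. They were among 568 of 12185 loci that it called higher in that setting, beside 739 lower. For NEFL and NEFM the 2 libraries left out were the highest with vehicle and the lowest with nicotine, which by itself widens the difference. RBFOX3 ran from 0.33 to 0.65 when single libraries were left out. Among 14 interneuron and sensory transcription factors 12 were above 0, with a median of 0.61. FEV, known in mouse from serotonergic neurons, was the only one of them without overlap, at 0.162 to 0.362 CPM with vehicle and 0.493 to 1.14 CPM with nicotine, a low level. Over all loci 2.32% lay entirely higher. Of the 11 proneural and Notch genes tested 9 stood above 0, with a median of 0.13, and none of the list was called. At an unadjusted p under 0.05 by edgeR, 1 was higher (7.55% of loci) and 1 lower (7.38%). NEUROG1, a proneural factor of sensory and dorsal neurons, stood at 1.24 to 3.36 and 2.74 to 5.25 CPM (1.05 ± 0.36). MFNG of the same list stood below 0, at -5.15 to -3.04 when single libraries were left out.

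Of 16 listed nicotinic receptor subunits 9 were tested, and none of them had an edgeR adjusted p under 0.05. The others, CHRNA7 among them, were not tested under a symbol. CHRNA4, a main subunit of neuronal receptors, stood at 10.6, 16.1, 12.5 and 15.7 CPM with vehicle and 15.9, 10.1, 16.001 and 12.9 CPM with nicotine, a log2 difference of 0.00 ± 0.17 (edgeR). Its partner CHRNB2 stood at 4.30, 10.7, 3.53 and 8.81 CPM and 9.63, 7.47, 11.4 and 6.71 CPM (0.36 ± 0.29), where vehicle replicates 1 and 3 lay below all nicotine libraries and vehicle replicates 2 and 4 among them. CHRNA1, the muscle subunit, stood at 17.2 to 33.3 and 12.9 to 24.9 CPM (-0.21 ± 0.32), and CHRNG, the embryonic muscle subunit, at 1.54 to 4.09 and 2.61 to 4.54 CPM (0.38 ± 0.34). CHRNA3, a subunit of ganglionic receptors, stood at 1.39 to 2.06 and 1.15 to 2.37 CPM (0.02 ± 0.30). CHRNB4, its usual partner, stood at 1.66, 1.23, 0.963 and 2.36 CPM with vehicle and 1.23, 0.881, 0.710 and 0.740 CPM with nicotine (-0.80 ± 0.36, unadjusted p = 0.0446 and adjusted p = 0.325 by edgeR), and was the only one of the 9 subunits tested with an unadjusted p under 0.05. CHRNA2, CHRNB3 and CHRNA6 were near or below 1 CPM in most libraries, with log2 differences of 0.40 ± 0.52, -0.16 ± 0.46 and 0.04 ± 0.81. Without vehicle replicate 2 and nicotine replicate 4, CHRNB2 stood at 0.74 (unadjusted p = 0.0185 by edgeR), CHRNA2 at 1.082 and CHRNB4 at -0.84 (unadjusted p = 0.0753). None of the 3 subunits with an adjusted p in the authors' deposited table was called.

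Motor neuron genes did not move together. Of 10 tested, 6 were above 0 and the median was 0.04. ISL1, a transcription factor of motor neurons and also of sensory ganglia, was called higher in the authors' deposited table, at 0.65 and an adjusted p of 0.0338, but not by DESeq2 without the term for the absent loci (adjusted p = 0.202), and its libraries overlapped widely. They stood at 28.0, 47.4, 16.8 and 22.8 CPM with vehicle and 29.9, 34.6, 48.0 and 68.0 CPM with nicotine (0.65 ± 0.30). ISL1 ran from 0.36 to 0.97 when single libraries were left out. Without vehicle replicate 2 and nicotine replicate 4 it stood at 0.71 and was called by DESeq2 (adjusted p = 0.0441). In that setting DESeq2 called 568 of 12185 loci higher and 739 lower. By edgeR 1 of the 10 genes was then higher and 2 lower at an unadjusted p under 0.05, against 10.3% and 10.6% of loci. CHAT, the enzyme that makes acetylcholine, lay entirely lower, at 2.51, 2.46, 3.30 and 2.84 CPM with vehicle and 1.64, 2.01, 0.757 and 1.31 CPM with nicotine (-0.95 ± 0.33). The vesicular acetylcholine transporter SLC18A3 stood at 0.05, or 0.44 without vehicle replicate 2 and nicotine replicate 4, the choline transporter SLC5A7 at -0.49, and GFRA1, a co-receptor for the motor neuron survival factor GDNF, at -0.56 ± 0.22. CHAT had no adjusted p in the authors' deposited table.

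The authors' deposited table gave an adjusted p to 14 genes of ion channels and calcium handling, and RYR3 was the only call, lower (1.95% of loci). Of 21 genes tested by edgeR 3 did not overlap between the groups, 2 higher (2.32% of loci) and RYR3 lower (2.07%). The other pair were higher and of low level: KCNS1, a modulatory potassium channel subunit, at 1.03 to 1.42 and 1.85 to 2.79 CPM, and CNGA4, a subunit of cyclic nucleotide-gated channels, at 0.179 to 0.687 and 0.820 to 1.37 CPM. Of 30 synapse and transmitter genes 11 stood above 0, with a median of -0.13, and 1 was higher and 3 were lower at an unadjusted p under 0.05. Over all loci 7.55% were higher and 7.38% lower at that threshold, and of the 8526 with a symbol 657 were higher and 870 lower. For 1 of the 30 the groups did not overlap, against 2.32% of loci higher and 2.07% lower. It was GRIN2A, an NMDA receptor subunit, at 1.66, 2.39, 2.20 and 1.22 CPM with vehicle and 0.574, 0, 1.14 and 0.566 CPM with nicotine (-1.73 ± 0.61). In the authors' deposited table GRIN2A had no adjusted p, and none of the 17 genes of the list with one was called.

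The Wnt pathway held a call in each direction among 21 genes with an adjusted p in the authors' deposited table. Over all loci 0.756% were called higher and 1.95% lower. RSPO1, a secreted protein that amplifies Wnt signals, stood at 4.08, 9.66, 8.44 and 11.8 CPM with vehicle and 14.5, 20.1, 15.7 and 16.9 CPM with nicotine, without overlap (0.98 ± 0.23). It was called in the authors' deposited table at 0.96 (adjusted p = 0.0181). LGR4, a receptor for R-spondins, was called lower in the authors' deposited table, at -1.05 and an adjusted p of 0.0308. It stood at 200, 179, 128 and 190 CPM with vehicle and 71.7, 64.0, 57.7 and 172 CPM with nicotine. Nicotine replicate 4 lay within the vehicle range, so the log2 difference was -0.93 ± 0.33 with it and, without it and vehicle replicate 2, -1.44. DKK3, a secreted protein related to Wnt inhibitors, was the other Wnt gene of 22 without overlap, at 0.34 ± 0.11, against 2.32% of loci higher. Of 16 BMP and TGF-beta genes with an adjusted p there, 2 were called, both lower (1.95% of loci). BMPR1A, a type I BMP receptor, stood at 208, 178, 219 and 181 CPM with vehicle and 154, 144, 113 and 156 CPM with nicotine. SMAD5, a transducer of BMP signals, stood at 326 to 391.8 and 253 to 319 CPM. These 2 genes stood at -0.47 ± 0.10 and -0.28 ± 0.08 with no overlap (2.07% of loci lower). The median of the 18 genes tested was 0.09. Of 7 retinoic acid genes with an adjusted p there, the receptor RARB was the only call, lower (1.95% of loci). RARB stood at 63.6 to 88.4 and 52.7 to 64.3 CPM with a small overlap. Of the 7 genes 5 stood above 0 by edgeR, with a median of 0.17. At an unadjusted p under 0.05, 2 were higher (7.55% of loci) and 1 lower (7.38%). The libraries lay entirely higher for 1 (2.32% of loci) and entirely lower for 0 (2.07%). No gene of FGF, IGF and receptor tyrosine kinase signalling was called among 20, FGFR1 being nearest in the authors' deposited table at 0.35 (adjusted p = 0.0696).

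Cell adhesion and matrix genes were called in the lower direction alone. Of 23 adhesion genes with an adjusted p in the authors' deposited table, 4 were called lower, against 1.95% of loci, none was called higher, and 18 stood below 0. CLSTN2, a calsyntenin of synaptic membranes, stood at 27.6, 25.4, 28.0 and 20.3 CPM with vehicle and 18.3, 10.6, 5.87 and 15.2 CPM with nicotine (-1.01 ± 0.26). CDH7, a cadherin of migrating neural crest and neural tube in chick, stood at 20.2, 19.7, 23.5 and 22.5 CPM and 17.2, 13.7, 9.04 and 14.0 CPM (-0.67 ± 0.17). CADM2, a synaptic adhesion protein, stood at 35.1 to 39.9 and 22.0 to 30.9 CPM, and TENM2, a teneurin of growing axons, at 37.4 to 67.0 and 27.3 to 41.5 CPM. The first 3 did not overlap between the groups, and TENM2 did. Of 23 genes tested, 3 were thus entirely lower (2.07% of loci) and 0 entirely higher (2.32%). Nicotine replicate 3 was the lowest library for CLSTN2 and CDH7. Without vehicle replicate 2 and nicotine replicate 4, 8 of the 23 were lower at an unadjusted p under 0.05 and 0 were higher, where 10.6% of loci were lower, and 7 and 0 were so with all 8 libraries, where 7.38% were. Of the 8526 tested loci with a symbol, 870 were lower with all 8 libraries.

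Of 26 collagen, laminin and matrix genes in the authors' deposited table, 5 were called lower (1.95% of loci) and 0 higher (0.756%). LAMA2, VCAN and MMP2 were not called by DESeq2 without the term for the absent loci, at adjusted p-values of 0.0734, 0.0904 and 0.0609, and MMP2 stood at 0.0503 with it. COL14A1, a fibril-associated collagen, stood at 252, 188, 287 and 193 CPM with vehicle and 143, 72.6, 157 and 158 CPM with nicotine (-0.79 ± 0.21). LAMB4 and LAMA2, laminin chains of basement membranes, stood at 29.8 to 39.0 and 11.7 to 26.9 CPM and at 34.0 to 47.2 and 17.9 to 31.7 CPM. The groups did not overlap for these 3 genes. Of 25 genes tested, 3 were thus entirely lower (2.07% of loci) and 0 entirely higher (2.32%). MMP2, a matrix protease, stood at 294 to 398 and 275 to 330 CPM and VCAN, a large proteoglycan of the pathways of neural crest, at 634 to 935 and 372 to 671 CPM, both with overlap. COL4A1 and COL4A2 of basement membranes stood at -0.02 and -0.01, COL3A1 at -0.08 (-0.30 without vehicle replicate 2 and nicotine replicate 4) and FN1 at 0.07, and none of these 4 was called.

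Of 35 axon guidance genes with an adjusted p in the authors' deposited table, 1 was called higher (0.756% of loci) and 3 lower (1.95%). PLXNB1, a receptor for class 4 semaphorins, was higher at 57.7, 84.4, 67.9 and 48.8 CPM with vehicle and 122, 86.2, 107 and 115 CPM with nicotine (0.73 ± 0.19), without overlap. Its relative PLXNB2 was lower, at 223 to 292 and 152 to 227 CPM (-0.41 ± 0.11), with a small overlap. SEMA3C, a secreted semaphorin, stood at 99.5, 78.2, 106 and 71.8 CPM with vehicle and 62.1, 52.8, 43.2 and 61.5 CPM with nicotine (-0.69 ± 0.15). EPHA3, an ephrin receptor that sorts motor and retinal axons, stood at 182, 171, 237 and 157 CPM and 162, 122, 87.7 and 107 CPM (-0.64 ± 0.17), with a single overlap between vehicle replicate 4 and nicotine replicate 1. The list median was -0.04.

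**Figure D2:**
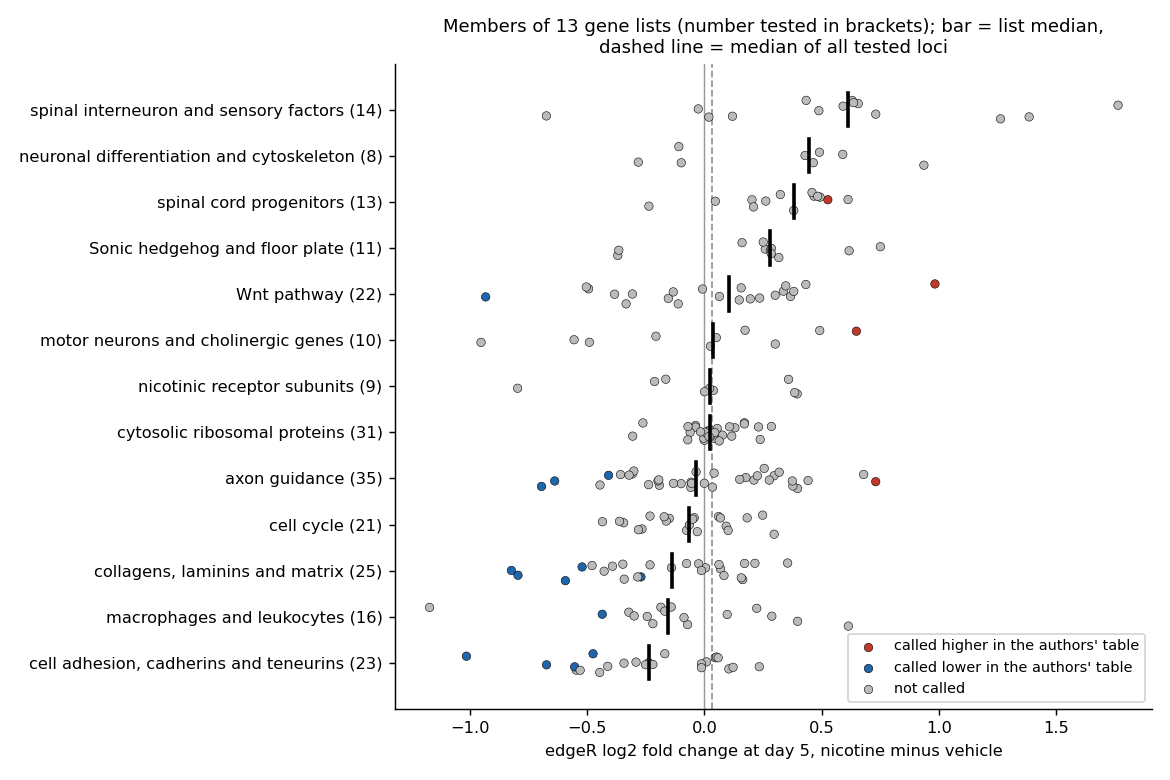
Members of 13 gene lists. The horizontal axis is edgeR's log2 fold change at day 5, nicotine minus vehicle, each point is a gene, black bars are list medians, the dashed line is the median of all tested loci (0.03), and colours mark calls of the authors' deposited table. The medians run from 0.61 for interneuron and sensory factors to -0.24 for cell adhesion genes, and most points of each list are not called.

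Of 12 immediate early and heat shock genes with an adjusted p in the authors' deposited table, 2 were called higher and 0 lower. Over all loci 0.756% were called higher and 1.95% lower. JUN, a subunit of the AP-1 transcription factor, stood at 38.7, 44.95, 34.0 and 48.7 CPM with vehicle and 62.3, 52.8, 62.4 and 50.9 CPM with nicotine (0.46 ± 0.12), and DUSP1, a phosphatase that switches off MAP kinases, at 4.57 to 6.42 and 7.17 to 8.97 CPM (0.48 ± 0.12). JUN and DUSP1 were the 2 calls. They were also the 2 of 19 genes tested without overlap, against 2.32% of loci entirely higher and 2.07% entirely lower. NR4A2, an orphan nuclear receptor induced by activity, stood at 0.86 with overlap, while EGR1 stood at 0.25. Of the stress genes DDIT4, an inhibitor of mTORC1 induced by stress and hypoxia, was called higher, at 36.02, 28.6, 19.9 and 41.8 CPM with vehicle and 45.04, 62.6, 52.4 and 49.3 CPM with nicotine (0.73 ± 0.21). It was the only call of 10 stress genes with an adjusted p (0.756% of loci higher). Among genes of folate metabolism and neural tube closure SHMT1, the cytosolic serine hydroxymethyltransferase, was the only call of 21 (0.756% of loci higher). It stood at 11.3, 12.2, 12.4 and 11.5 CPM with vehicle and 15.2, 18.8, 16.8 and 16.5 CPM with nicotine (0.51 ± 0.11). MTHFD2, a mitochondrial enzyme of folate metabolism, also did not overlap, at 16.1 to 18.4 and 19.2 to 24.2 CPM, and was not called (adjusted p = 0.0803 in the authors' deposited table). The closure genes VANGL2, SCRIB and CELSR1 stood at 0.39, 0.16 and -0.02, and VANGL2 at 0.62 without vehicle replicate 2 and nicotine replicate 4. A list of 20 genes held chromatin regulators and also the RNA demethylase FTO. Of these DNMT3A, a de novo DNA methyltransferase, was called higher at 0.36, and CHD9, a chromodomain helicase, lower at -0.53 in the authors' deposited table, besides FTO. That was 1 of 20 called higher (0.756% of loci) and 2 called lower (1.95%). No gene was called in the lists of cytosolic ribosomal proteins (33 genes), oxidative phosphorylation (32), cell cycle (21), apoptosis (11) and xenobiotic metabolism (3) in the authors' deposited table, and their medians there lay between -0.08 and 0.01.

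Markers of other cell types in the block were measured in the same way. CSF1R, the receptor that macrophages need, was called lower, at 29.4, 30.1, 33.6 and 29.4 CPM with vehicle and 27.1, 22.8, 20.1 and 20.6 CPM with nicotine (-0.44 ± 0.09), without overlap. LCP2, an adaptor of immune cell signalling, stood at 3.00, 2.78, 2.80 and 2.80 CPM and 1.43, 1.303, 0.994 and 1.31 CPM (-1.17 ± 0.27) and had no adjusted p in that deposited table. Of the 16 markers of macrophages and leukocytes 5 stood above 0, with a median of -0.16, and in the authors' deposited table the 5 that had an adjusted p all stood below 0. Of these 5, 1 was called lower (1.95% of loci), and 2 of the 16 lay entirely lower (2.07% of loci). Other macrophage genes had no unadjusted p under 0.05: C1QA, C1QB and C1QC stood at 0.29, 0.22 and 0.61, CD74 at -0.07 and SPI1 at -0.19, and all 16 markers summed to 105 to 148 CPM with vehicle and 91.4 to 120 CPM with nicotine. For muscle, SGCA, a sarcoglycan, was called higher at 4.97, 1.37, 7.16 and 5.605 CPM with vehicle and 10.3, 9.55, 14.2 and 6.05 CPM with nicotine, while its relative SGCD was called lower at 78.7 to 106 and 60.5 to 77.9 CPM. Of 17 muscle genes with an adjusted p in the authors' deposited table, 1 was thus called higher (0.756% of loci) and 1 lower (1.95%). The summed muscle markers overlapped, at 1310 to 1600 and 1190 to 1500 CPM. SOX6, a transcription factor of cartilage and also of ventral progenitors, was called lower at 4.35 to 6.51 and 2.46 to 4.75 CPM, and the cartilage markers summed to 442 to 780 and 492 to 818 CPM. It was the only call of 12 cartilage and sclerotome genes with an adjusted p (1.95% of loci lower). GJA4, a connexin of arterial endothelium, was called higher at 2.60 to 4.12 and 4.14 to 6.25 CPM, and 9 endothelial markers summed to 314 to 328 and 313 to 340 CPM. Of these 9, 1 was called higher (0.756% of loci), and 2 lay entirely higher (2.32% of loci). Summed markers of Schwann cells, neural crest and sensory ganglia stood at 49.2 to 113 with vehicle and 80.5 to 128 CPM with nicotine, those of oligodendrocyte precursors and astroglia at 462 to 590 and 363 to 510 CPM, those of skin epithelium at 383 to 678 and 409 to 657 CPM and those of red blood cells at 724 to 1010 and 752 to 1080 CPM. The part of these marker levels in the other results was not tested.

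Some named loci were too low for an adjusted p in the authors' deposited table but separated the groups in the matrix. GJB1, a connexin of Schwann cells and liver, stood at 0.448, 0.506, 1.01 and 1.34 CPM with vehicle and 1.43, 2.54, 2.18 and 3.14 CPM with nicotine (1.49 ± 0.36). TRPC5, a cation channel of growth cones, stood at 0.717 to 1.63 and 0.246 to 0.564 CPM (-1.37 ± 0.44), and MLIP, a lamin-interacting protein of muscle, at 1.34 to 2.52 and 0.610 to 1.11 CPM (-1.23 ± 0.35). Of the loci with no symbol, the smallest p-values belonged to MSTRG.15855 and MSTRG.13241 on the higher side, at 0.96 and 0.42, and to MSTRG.8485 and ENSGALG00000015056 on the lower side, at -0.38 and -1.06.

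The genes called lower were long and those called higher were short. Gene span, from start to end in the RefSeq annotation of GRCg7b, could be matched by symbol for 7048 of 7212 genes (97.7%), and its median was 60.5 kb for genes called lower and 9.56 kb for genes called higher in the authors' deposited table. From the shortest to the longest of 4 equal bins of genes the share called lower was 0.17%, 0.965%, 2.61% and 5.16%, and the share called higher 1.48%, 0.795%, 0.341% and 0.397%. For single libraries the bins were made anew from 7764 loci of the matrix with a symbol, a span and a mean level above a floor. The longest and the shortest of these bins held 1941 loci each. The mean centred log2 CPM of this longest bin minus that of the shortest was 0.262, 0.201, 0.127 and -0.0368 with vehicle and 0.0566, -0.274, -0.374 and 0.0387 with nicotine. Nicotine replicates 2 and 3 were lowest, and nicotine replicates 1 and 4 lay within the vehicle range. The part of gene span in the differences of the gene lists was not tested.

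**Figure D3:**
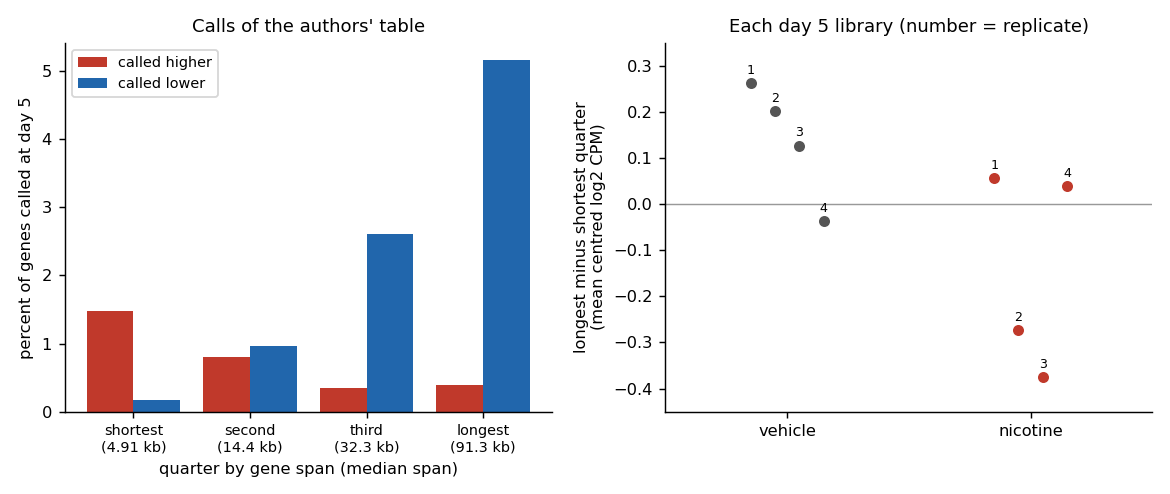
Gene span and the nicotine difference at day 5. The left panel gives the percent of genes called higher (red) and lower (blue) in the authors' deposited table for 4 bins of gene span of 1762 genes each, with the median span in kb under each. The right panel gives for each library (number, replicate) the mean centred log2 CPM of the longest bin minus that of the shortest. Its bins were made anew from loci of the matrix, with 1941 loci in each of these 2. The share called lower rises from 0.17% to 5.16%, and nicotine replicates 2 and 3 lie lowest, at -0.274 and -0.374.

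The embryos of day 7, 4 nicotine and 4 vehicle libraries with no embryo in common with those above, gave the same comparison 2 days later. In the authors' deposited table of day 7, 84 loci were called (0.393% of 21357), of which 19 were among the 11908 with an adjusted p at day 5, and 1 of them was also called at day 5, which is 0.311% of the day 5 calls and 1.19% of the day 7 calls. That locus, MSTRG.6953, had no symbol, and its log2 fold changes there were 9.12 at day 5 and 29.5 at day 7. At day 5 it held 0, 330, 0 and 0 counts with vehicle and 357, 301, 240 and 266 with nicotine. Of the 90 loci called higher at day 5, 26.7% stood above 0 at day 7, and of the 232 called lower, 84.5% did, against 58.5% of all loci with an adjusted p in the authors' deposited table. CELF2 stood above 0 on both days, at 1.01 and 0.71, while RYR3 stood at -1.10 and 0.49, SBF2 at -0.79 and 0.33, DDIT4 at 0.71 and -0.67, TNS1 at 0.87 and -0.31 and EPHA3 at -0.66 and 0.38 in the authors' deposited table. None of these 6 was called at day 7. edgeR called 0 loci (0.0%) for the difference of the nicotine effect between the days, with a smallest adjusted p of 0.0956 and 2521 loci (13.7%) at an unadjusted p under 0.05, and the authors' deposited table of that difference called 285 of 12733 (2.24%).

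**Figure D4:**
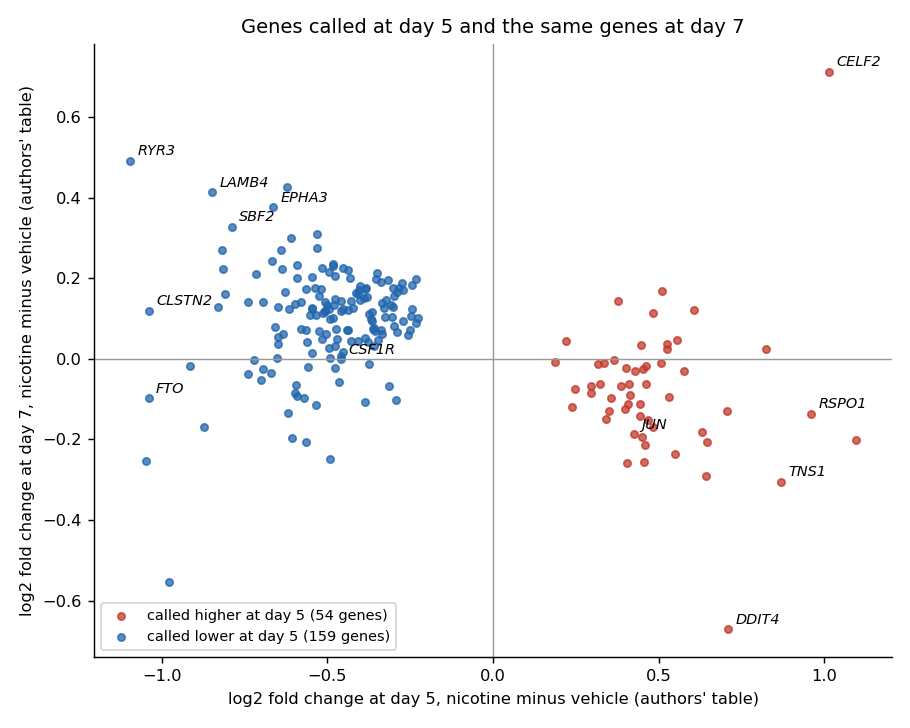
Named genes called at day 5 and their values at day 7. The horizontal and vertical axes are the log2 fold changes of nicotine minus vehicle at day 5 and day 7 in the authors' deposited tables, with 54 genes called higher (red) and 159 called lower (blue) at day 5. Of the red points 20.4% and of the blue points 83.0% lie above 0 at day 7, and CELF2 lies high on both axes, at 1.01 and 0.71.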

How the data were processed

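Spinal cord tissue was sequenced as paired-end RNA-seq. Per the submitters' processing notes, the authors ran StringTie 1.3.3b, the aligners HISAT2 2.0.5 and Bowtie2 2.3.2, Trim Galore 0.4.4, FastQC 0.11.5 and DESeq2. The genome build and strandedness of counting: not given in the sources used here. The authors deposited raw counts per locus and, for each comparison, tables of log2 fold changes with p-values. An adjusted p of exactly 1 beside a p under 1 was taken as no adjusted value.

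Here the counts of all 16 libraries were fitted with edgeR 4.0.16 (R 4.3.3; TMM scaling, filterByExpr, quasi-likelihood test, Benjamini-Hochberg), with DESeq2 1.42.0 as the alternative; both were tested on simulated data. CPM are counts scaled to the TMM library size, and counting error is largest for genes near or below 1 CPM. Total counts per day 5 group were compared with an exact permutation test.

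Of 7138 identifiers shared by matrix and table, 71.6% had deposited log2 fold changes within 0.0005 of a DESeq2 fit with a term marking the libraries that lacked 57 loci (median largest difference 0.000161), and the rest did not; the sources do not name that term. Assembled loci were therefore paired with table rows by log2 fold changes in 3 comparisons, within that tolerance, a choice made after seeing the data. Of 5055 shared identifiers that were paired, 5055 met their own row; 12983 loci were joined. Some list members are not reported here. Replicate numbers were not used as pairs in the main fit. Genes named were the 12 non-overlapping loci per direction with the smallest edgeR p, the 15 called genes per direction with the smallest p in the table, called list members or up to 2 per list otherwise, and 2 unnamed loci per direction; further list members named were chosen after their values were seen. The comparison and the gene lists were chosen with earlier results of these data known.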

Additional observations from a re-analysis of the deposited data

Results flagged for a closer look

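In 12 of 244 groups of 4 libraries a single library stood far from the other 3 by Dixon's ratio, and chance alone flags about 1 group in 20. With vehicle, replicate 1 stood apart for LCP2 (3.00 CPM), DAPK2 (6.63 CPM) and GRHL2 (7.44 CPM), replicate 2 for CHRNA2 (1.56 CPM), replicate 3 for ARAP3 (17.5 CPM), VWCE (1.28 CPM) and ALDH1A1 (8.85 CPM), and replicate 4 for UVRAG (11.7 CPM). With nicotine, replicate 3 stood apart for ANKK1 (1.37 CPM) and KIF11 (169 CPM), and replicate 4 for LGR4 (172 CPM) and SOX6 (4.75 CPM).

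For 27 of 88 genes examined in the authors' deposited tables, the nicotine effect differed between day 5 and day 7 at an adjusted p under 0.05 by the authors' own test of that difference, while edgeR called 0 loci for it. The day 7 effect minus the day 5 effect, on the log2 scale in the authors' deposited table, was negative for STX6 (-0.49), TNS1 (-1.18), PIAS4 (-0.50), C12orf10 (-0.65), TNPO2 (-0.45), MGAT4B (-0.38), ARAP3 (-0.56), RFX2 (-0.62), JUN (-0.61), DUSP1 (-0.71), DDIT4 (-1.38) and GJA4 (-0.93). It was positive for SBF2 (1.12), RYR3 (1.59), ZNF521 (0.39), CRIM1 (0.82), DIP2C (0.69), RORA (0.57), BMPR1A (0.59), MGEA5 (0.91), CCDC88A (0.45) and FOXN2 (0.58). The same sign was found for SEMA3C (0.92), RARB (0.48), EPHA3 (1.04), LAMB4 (1.26) and SGCD (0.63). These genes were chosen for their day 5 values, which enter the difference.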

How the results depend on the processing

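The count of loci called at day 5 depended on the tool more than on scaling or filtering. edgeR called 0 with RLE scaling, without the filter on low counts and on the 8 day 5 libraries alone, and 1 with a term (covariate) marking the libraries that lacked 57 loci. With the replicate number as a block it called 0 (smallest adjusted p 0.878). Correlations of same-numbered samples, after centring on the group mean, ran from -0.239 to 0.0112. With 4 libraries per group they cannot decide whether the numbers mark a shared clutch or batch. DESeq2 called 267, and 299 with the covariate. Leaving out single libraries gave 0 to 3 calls with edgeR and 35 to 1135 with DESeq2. DESeq2 called 61, 873, 35 and 1135 without vehicle replicates 1 to 4 and 468, 71, 54 and 687 without nicotine replicates 1 to 4, and the cause was not tested. Without vehicle replicate 2 and nicotine replicate 4 together, a choice made after seeing the data, edgeR called 1 and DESeq2 1307. At an unadjusted p under 0.05, edgeR then had 6 higher and 4 lower of 22 Wnt genes and 7 and 7 of 35 axon guidance genes. It had 1 and 10 of 25 matrix genes, 3 and 5 of 30 synapse genes and 0 and 2 of 16 macrophage and leukocyte markers. Over all loci 10.3% were higher and 10.6% lower. At an adjusted p under 0.01 the authors' deposited table called 31 loci in place of 322.

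The difference between the days had 0 edgeR calls, 1 with the covariate, 1 without those 2 libraries, 0 to 5 when single libraries were left out, and 232 and 267 with DESeq2 without and with the covariate. The difference of mean totals, 29362 counts, ran from -1386022 to 1073730 when single libraries were left out.

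Of 3192 values of 123 named loci over 26 settings, 63 changed sign, in 8 genes. Among other list members named, COL4A1, COL4A2 and CELSR1 became 0.02, 0.15 and 0.04 without the 2 libraries. CHRNA6 became -0.24 and -0.27 with the covariate (edgeR, DESeq2) and -1.10 and -1.13 without the 2 libraries, and -1.10 to 0.54 without single ones. CHRNA3 became -0.0081 with RLE, -0.0283 with the block, -0.0064 and -0.0141 with DESeq2 without and with the covariate, -0.0055 with the covariate on 8 libraries, and -0.21 to 0.14 without single libraries. CHRNA4 became -0.026 with RLE, -0.0089 without the filter, -0.0157 on 8 libraries, -0.0189 with the block, -0.0273 and -0.0265 with DESeq2 without and with the covariate, -0.0109 with the covariate on 8 libraries, and -0.13 to 0.0903 without single ones. Without the 2 libraries CHRNB3 became 0.21 and 0.22 and CYP1B1 0.0137 and 0.0113 (edgeR, DESeq2). Without single libraries ALDH1A1 ran from -1.99 to 0.68, CYP1B1 from -0.23 to 0.036, SLC4A1 from -0.0328 to 0.38, CHRNB3 from -0.47 to 0.0955 and CHRNA2 from -0.31 to 0.98.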

Other observations

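KIF11, a motor protein of the mitotic spindle, lay entirely lower at day 5 with a log2 difference of -0.43 ± 0.15 (edgeR, unadjusted p = 0.00948). Of 21 cell cycle genes 3 were lower and 1 higher at an unadjusted p under 0.05 with all 8 libraries, where 7.38% and 7.55% of all loci were. Without vehicle replicate 2 and nicotine replicate 4 the counts were 8 lower and 2 higher, where 10.6% and 10.3% of loci were. None was called in the authors' deposited table.

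At 385 loci each day 5 library held either 0 counts or at least 20, and 13 of these loci had a symbol. The most frequent pattern, at 59 loci, was a count of 0 in vehicle replicate 2 and nicotine replicate 4 alone. At 1 locus, MSTRG.15169, all 4 vehicle libraries held 0 counts and the nicotine libraries held 32, 32, 42 and 41, and 0 loci had the reverse pattern. MSTRG.17049 came near to it, with 0 in all 4 nicotine libraries and 88, 0, 62 and 109 counts with vehicle. A further 5 loci were at 0 in 3 vehicle libraries and in no nicotine library, and 3 were at 0 in 3 nicotine libraries and in no vehicle library.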
